A study of Arabidopsis thaliana with 24 samples.

Results

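The response of the *hy5-215* shoot to 4 h of high ambient temperature was described from the 6 shoot libraries of the mutant, 3 at 28 °C and 3 at 22 °C, among the 24 libraries of the series. The genotype was taken from the sample titles, because the genotype tag names WT for every shoot library. Every gene passing the count filter was a member, 15680 of the 33977 gene identifiers in the count table. The series also holds the *hy5-215* root and the shoot and root of Col-0, the WT, each at 28 °C and at 22 °C with 3 biological replicates. Both mutant groups were light-grown seedlings in the Col-0 background, raised on sucrose-free MS medium for 5 days at 22 °C in white light and then exposed for 4 h of continuous white light to 28 °C or kept at 22 °C. The labels call the tissue hypocotyl, whereas the methods describe a shoot sample of hypocotyl and cotyledons, and the methods give a later day and brighter light than the labels. All 6 libraries carry the single allele *hy5-215*. The *HY5* transcript is still counted in it, so the 3′ counts do not check the genotype.

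HY5 is a bZIP transcription factor that promotes light responses of seedlings, among them short hypocotyls, greening and flavonoid synthesis. In warm conditions seedlings stretch their hypocotyls, a growth response that runs through the bHLH factor PIF4, auxin and brassinosteroid. Moderate warmth also induces chaperones that keep proteins folded.

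Libraries held 2860904, 3395380 and 2620219 counts at 28 °C and 2635000, 3781032 and 2938614 counts at 22 °C. In a principal component analysis the first component (48.3% of the variance) separated the temperatures, whereas on the second (16.9%) 28 °C replicate 3 lay at 26.5, apart from replicates 1 and 2 at -22.9 and -4.50. Pairs of replicates differed by more than counting noise, with a chi-square of 1.45 to 3.47 for each degree of freedom. Levels are given in CPM, counts scaled to library size with TMM factors, in the order of replicates 1, 2 and 3. Summed levels of a gene list were scaled to library size alone, without these factors. The tissue matched its label by summed levels of photosynthesis and greening genes, 124881 to 135821 CPM at 28 °C and 122132 to 129287 CPM at 22 °C, against at most 2459 CPM in the *hy5-215* root. Genes of the root were also present, and they moved with temperature. The 1615 genes at least 4-fold higher in the Col-0 root than in the Col-0 shoot at 22 °C took 1.998%, 1.88% and 1.80% of the *hy5-215* shoot counts at 28 °C, against 1.41%, 1.46% and 1.45% at 22 °C, with no overlap between the temperatures. Their part in the results below was not tested, and in whole-tissue RNA more cells of a type and more RNA per cell cannot be told apart.

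After 4 h at 28 °C, 563 genes were differentially expressed (DEGs) in the *hy5-215* shoot, 3.59% of those tested, with 277 higher (1.77%) and 286 lower (1.82%). To be called, a gene had to pass edgeR's quasi-likelihood test at an adjusted p of 0.05 and to move 2-fold or more. The change was at least 4-fold in 46 of them, 23 in each direction, and at least 8-fold in 7. Values at 28 °C and 22 °C did not overlap in 552 DEGs, where 32.2% of all genes tested showed no overlap. The median log2 fold change over all genes was 0.01. By the adjusted p alone, 2644 genes passed (16.9%), 1183 higher (7.54%) and 1461 lower (9.32%), and 29% of all genes passed an unadjusted p of 0.05. Genes that were root-enriched by the ratio above made up 88 of the 277 DEGs that were higher (31.8%) and 2 of the 286 that were lower (0.699%), against 4.51% of all genes tested. Without them 473 DEGs remained, 189 higher and 284 lower.

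**Figure D1:**
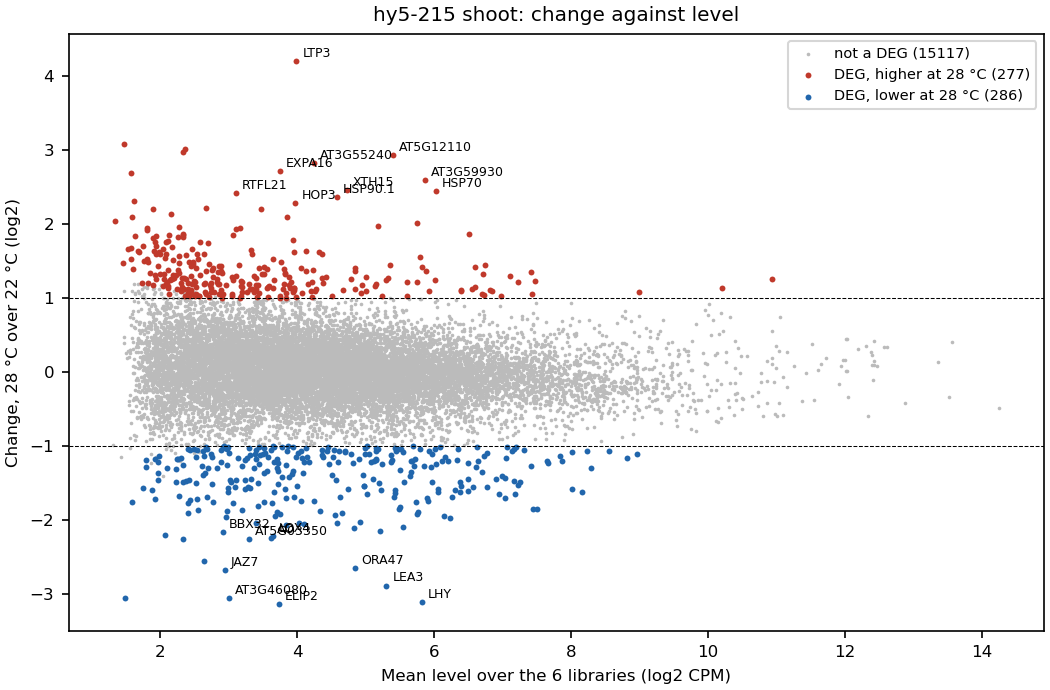
Change in the *hy5-215* shoot (log2 of 28 °C over 22 °C, y axis) against mean level (log2 CPM, x axis), 1 point per gene tested, with DEGs in red where higher and blue where lower and dashed lines at 2-fold. The 277 and 286 DEGs spread over all but the highest levels, and the 10 named genes of each direction reach 4.21 (*LTP3*) and -3.14 (*ELIP2*).

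The DEG with the largest rise among those with a mean of at least 20 counts was *LTP3* (chr5:23928954-23929816), a lipid transfer protein gene induced by drought and abscisic acid. It measured 49.8, 34.6 and 6.19 CPM at 28 °C, against 0.393, 2.99 and 1.02 CPM at 22 °C (log2 fold change 4.21, SE 0.57, adjusted p = 9.77e-06). The groups did not overlap, yet 28 °C replicate 3 lay far below replicates 1 and 2, and the log2 fold change without it was 4.65. *LTP3* was also one of the root-enriched genes. Its neighbour in function *LTP4* did not pass the count filter, with 85, 53 and 1 reads at 28 °C and 0, 0 and 0 at 22 °C, and again replicate 3 was the low one. The other genes with the largest rises were *AT5G12110* (an elongation factor 1-beta; 2.93), *AT3G55240* (a protein of unknown function; 2.82), *EXPA16* (a wall-loosening expansin; 2.71), *AT3G59930* (a defensin-like protein, root-enriched; 2.59), *XTH15*, *HSP70*, *RTFL21* (a small peptide gene; 2.42), *HSP90.1* and *HOP3* (log2 fold changes). *AT5G12110* rose more tightly than *LTP3*, with 68.8, 72.2 and 82.8 CPM at 28 °C, against 10.6, 9.78 and 8.88 CPM at 22 °C (log2 fold change 2.93, SE 0.16, adjusted p = 8.63e-12). *AT5G12110*, *XTH15* and *HOP3* overlap a gene on the opposite strand, and their counts are uncertain where strand was not used in counting.

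Among the falls, the largest was in *ELIP2* (chr4:8418242-8419325), an early light-induced protein of thylakoids under light stress. *ELIP2* had 2.71, 1.76 and 3.87 CPM at 28 °C, against 26.3, 31.5 and 13.3 CPM at 22 °C (log2 fold change -3.14, SE 0.34, adjusted p = 4.81e-07). The 22 °C libraries ranged widely, and still every one lay above every 28 °C library. The others were *LHY* (-3.11), *AT3G46080* (a zinc finger protein; -3.05), *LEA3* (a late embryogenesis abundant protein; -2.89), *JAZ7* (-2.68), *ORA47* (-2.65), *AT5G03350* (a lectin family protein; -2.27), *AO* (L-aspartate oxidase of NAD synthesis; -2.24), *LOX4* (-2.22) and *BBX32* (-2.16). *LEA3* varied little between replicates, with 9.15, 9.09 and 9.68 CPM at 28 °C, against 75.04, 60.9 and 72.4 CPM at 22 °C. *ORA47*, *AT5G03350* and *AO* overlap a gene on the opposite strand and *BBX32* one on its own strand, so their counts are uncertain.

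**Figure D2:**
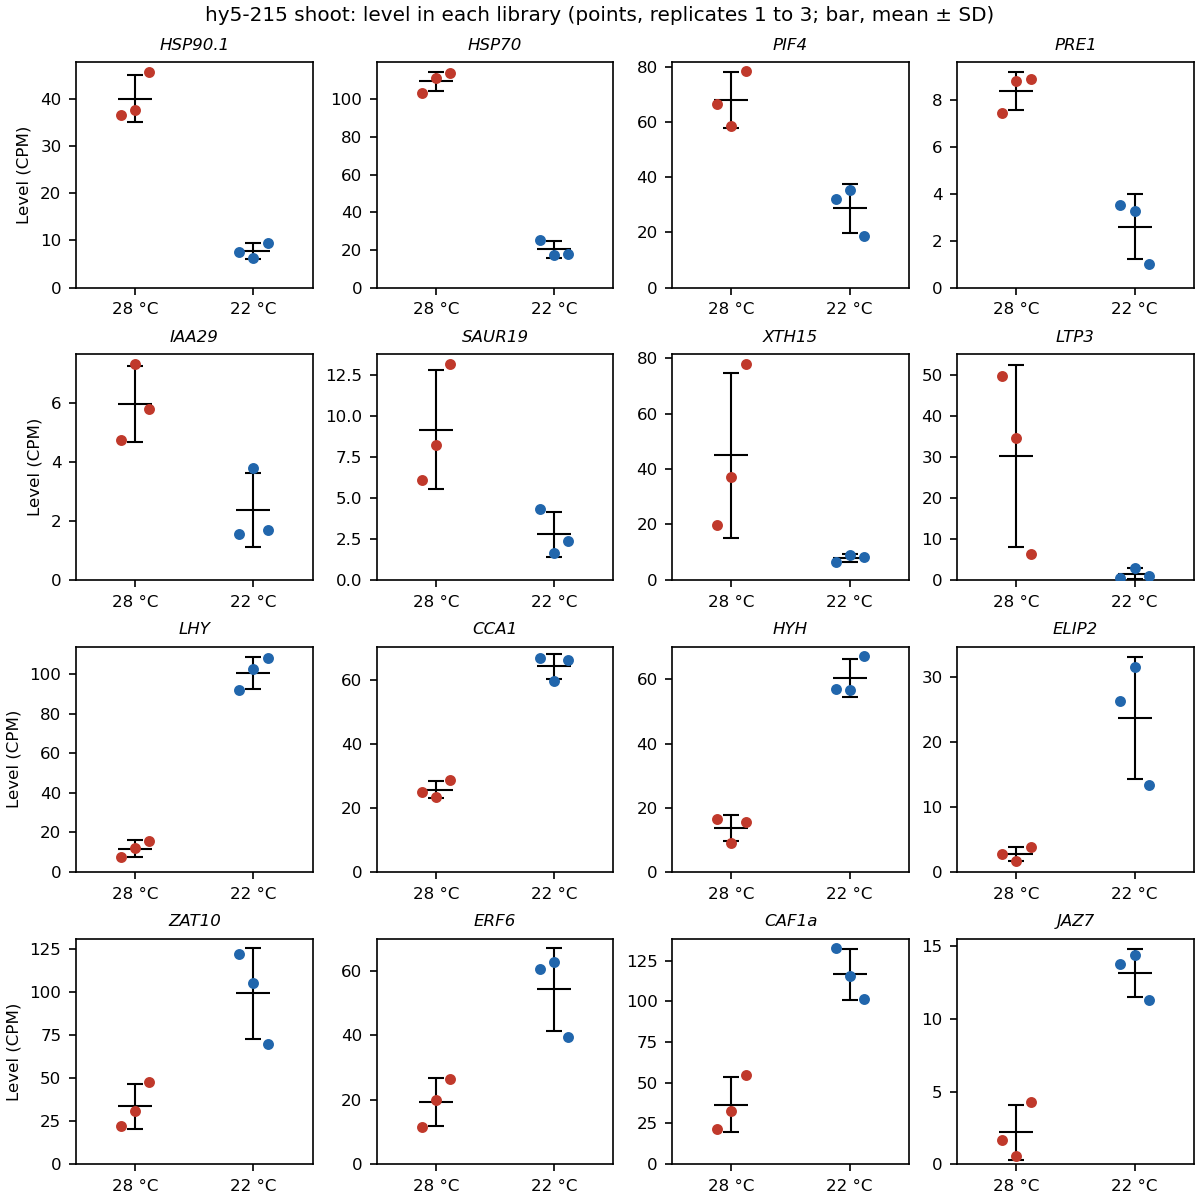
Level (CPM, y axis from 0) of 16 genes in each *hy5-215* shoot library at 28 °C (red, left) and 22 °C (blue, right); points are replicates 1 to 3 and bars the mean ± SD. The chaperones *HSP90.1* and *HSP70* and the clock gene *LHY* are separated far beyond their spread, whereas *LTP3*, *XTH15* and *CAF1a* vary widely at 28 °C.

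Chaperone genes rose together. Of the 26 chaperone and heat shock factor genes tested (of 36 listed), 12 rose and 1 fell as DEGs (50%, against 3.59% of all genes). The other 13 did not pass as DEGs, and the median log2 fold change was 0.87, against 0.01 over all genes. All 12 that rose had no overlap between the temperatures, as had 552 of the 563 DEGs and 32.2% of all genes tested. The log2 fold changes of the 12 ran from 1.31 to 2.97. *HSP70* (chr3:3991117-3993886), a cytosolic chaperone, had 104, 111 and 114 CPM at 28 °C, against 25.5, 17.395 and 18.1 CPM at 22 °C (log2 fold change 2.45, SE 0.14, adjusted p = 1.31e-11). *HSP90.1*, the heat-inducible HSP90, had 36.6, 37.5 and 45.7 CPM at 28 °C, against 7.46, 6.25 and 9.56 CPM at 22 °C (log2 fold change 2.37, SE 0.19, adjusted p = 5.27e-09). In both genes the 3 libraries of a temperature lay close together. *HOP3*, which passes clients between the HSP70 and HSP90 machines, had 23.0, 28.2 and 27.1 CPM at 28 °C, against 3.14, 5.98 and 6.49 CPM at 22 °C (log2 fold change 2.28, SE 0.23, adjusted p = 1.74e-07). *MBF1C*, a coactivator of heat tolerance, had 75.9, 87.7 and 93.7 CPM at 28 °C, against 20.4, 17.1 and 26.3 CPM at 22 °C (log2 fold change 2.02, SE 0.15, adjusted p = 1.46e-09).

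Small heat shock proteins, which hold unfolding proteins, were at low levels at 22 °C. *HSP17.4* had 9.15, 7.63 and 10.1 CPM at 28 °C, against 1.18, 0.544 and 1.71 CPM at 22 °C (log2 fold change 2.97, SE 0.42, adjusted p = 1.71e-05). *AT5G51440*, a mitochondrial small heat shock protein, had 18.3, 18.5 and 18.195 CPM at 28 °C, against 3.14, 4.08 and 4.44 CPM at 22 °C (log2 fold change 2.21, SE 0.25, adjusted p = 6.91e-07). The groups were apart in both. *HSA32*, which prolongs acquired heat tolerance, changed by 1.78 on the log2 scale, the FKBP cochaperone *ROF2* by 2.099, *HSP17.6A* by 1.76, *AT1G07400* by 1.76, *AT2G29500* by 1.39 and *BAG6* by 1.31. The call of *HSP17.6A* was lost without 28 °C replicate 2. *HSP17.6II*, not tested for low counts, had 15, 10 and 8 reads at 28 °C and 1, 3 and 2 at 22 °C, and the heat shock factor gene *HSFA2* 15, 8 and 7 at 28 °C and 1, 1 and 5 at 22 °C. By contrast the constitutive *HSC70-1* had 1387, 1383 and 1329 CPM at 28 °C, against 1249.7, 1254 and 1462 CPM at 22 °C, with overlapping groups and a log2 fold change of 0.05 (adjusted p = 0.771). The single member that fell was the heat shock factor *HSFA7A*, at 28.1, 19.7 and 27.1 CPM at 28 °C, against 54.2, 56.3 and 62.2 CPM at 22 °C (log2 fold change -1.22, SE 0.15, adjusted p = 1.76e-06).

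Heat shock factors bind inverted GAA repeats. The 250 bases before the annotated transcript start held GAANNTTC (a palindrome, so both strands read alike) in 2 of the 12 chaperone genes that rose, *HSP17.4* with 2 matches and *BAG6* with 1, where 9.13% of 15674 tested genes held it. *HSFA7A*, which fell, also had 2 matches. Both windows with 2 matches are shown because their genes moved in opposite directions; they come from the RefSeq annotation of TAIR10.1, run 5′ to 3′ on the gene's strand, and have the matches in capitals. The window of *HSP17.4* is chr3:16984868-16985117 on the minus strand, and that of *HSFA7A* is chr3:19264891-19265140 on the plus strand.
HSP17.4: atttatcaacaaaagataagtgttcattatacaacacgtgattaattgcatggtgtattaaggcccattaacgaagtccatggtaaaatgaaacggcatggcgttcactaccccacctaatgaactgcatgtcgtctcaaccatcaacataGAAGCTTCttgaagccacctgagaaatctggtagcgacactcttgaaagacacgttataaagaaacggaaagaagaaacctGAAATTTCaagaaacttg
HSFA7A: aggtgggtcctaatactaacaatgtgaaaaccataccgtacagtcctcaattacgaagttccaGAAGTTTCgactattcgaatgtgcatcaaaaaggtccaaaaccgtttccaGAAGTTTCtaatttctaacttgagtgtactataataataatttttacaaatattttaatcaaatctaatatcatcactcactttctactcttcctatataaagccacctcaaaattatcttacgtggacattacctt

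Clock genes moved in both directions. Of 26 clock genes tested, 2 rose and 5 fell as DEGs (26.9%, against 3.59% of all genes), and the list median was -0.14. *LHY* (chr1:33365-37871), a Myb repressor at the core of the clock, had 7.45, 12.03 and 15.9 CPM at 28 °C, against 91.9, 102 and 108 CPM at 22 °C (log2 fold change -3.11, SE 0.17, adjusted p = 8.63e-12). Its partner *CCA1* had 25.1, 23.47 and 28.6 CPM at 28 °C, against 66.8, 59.8 and 66.3 CPM at 22 °C (log2 fold change -1.32, SE 0.13, adjusted p = 1.32e-07). *RVE1*, a related Myb factor that promotes auxin synthesis, had 52.2, 39.6 and 35.6 CPM at 28 °C, against 117, 120.1 and 136 CPM at 22 °C (log2 fold change -1.55, SE 0.13, adjusted p = 5.94e-09). In all 3 genes every library at 28 °C lay below every library at 22 °C. *RVE8*, an activator of evening genes, had a log2 fold change of -1.69 and *COL2*, a CONSTANS-like gene, of -1.71. The DEGs that rose were *GI*, a late-day clock and flowering gene, at 24.7, 19.9 and 18.6 CPM at 28 °C, against 8.25, 10.6 and 10.2 CPM at 22 °C (log2 fold change 1.104, SE 0.21, adjusted p = 0.000447), and *PRR3*, which stabilises the TOC1 protein (log2 fold change 1.39). *GI* no longer reached 2-fold without 28 °C replicate 1 (log2 fold change 0.98). *LUX*, of the evening complex, was higher by the adjusted p alone (log2 fold change 0.66, adjusted p = 0.000802), and *TOC1* and *ELF3* overlapped between the temperatures (log2 fold changes -0.03 and 0.12).

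The G-box CACGTG, the site bound by HY5 and by PIF factors (a palindrome), was found in the 250-base windows of 3 of the 5 clock genes that fell, *LHY*, *CCA1* and *RVE1*, and in 7.6% of all tested genes. Those windows are printed with the G-box in capitals, from the same annotation and strand convention. They are chr1:37872-38121 on the minus strand for *LHY*, chr2:19245341-19245590 on the plus strand for *CCA1* and chr5:5692993-5693242 on the minus strand for *RVE1*.
LHY: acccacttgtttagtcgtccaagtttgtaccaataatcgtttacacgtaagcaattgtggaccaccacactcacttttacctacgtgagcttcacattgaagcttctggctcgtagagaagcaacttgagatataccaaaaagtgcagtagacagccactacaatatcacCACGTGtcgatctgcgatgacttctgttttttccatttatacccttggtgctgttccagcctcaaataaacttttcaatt
CCA1: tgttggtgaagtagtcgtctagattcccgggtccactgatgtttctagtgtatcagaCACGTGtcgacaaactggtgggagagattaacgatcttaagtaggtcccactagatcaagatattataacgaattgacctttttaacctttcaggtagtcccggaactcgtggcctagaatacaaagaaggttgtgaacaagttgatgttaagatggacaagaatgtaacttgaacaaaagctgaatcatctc
RVE1: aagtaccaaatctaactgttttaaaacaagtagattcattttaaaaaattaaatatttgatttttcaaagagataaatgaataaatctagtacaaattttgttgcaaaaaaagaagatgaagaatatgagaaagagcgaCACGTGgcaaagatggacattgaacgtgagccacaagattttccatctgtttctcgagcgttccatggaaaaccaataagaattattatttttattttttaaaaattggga

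Wound, touch and defence genes fell together. Of 19 tested, 11 fell and 1 rose as DEGs (63.2%, against 3.59% of all genes), and the median log2 fold change was -1.49. Most encode transcription factors or calcium sensors induced within minutes by wounding or touch. *ZAT10*, a zinc finger repressor, had 22.0, 31.1 and 47.6 CPM at 28 °C, against 122, 105 and 70.0 CPM at 22 °C (log2 fold change -1.58, SE 0.19, adjusted p = 2.8e-06). *WRKY33*, a regulator of camalexin defence, had 17.95, 19.4 and 30.6 CPM at 28 °C, against 87.2, 84.8 and 82.3 CPM at 22 °C (log2 fold change -1.92, SE 0.15, adjusted p = 3.26e-09). *TCH3*, a calmodulin-like touch gene, had 103, 116 and 169 CPM at 28 °C, against 371, 407 and 381 CPM at 22 °C (log2 fold change -1.59, SE 0.12, adjusted p = 3.55e-09). None of the 11 overlapped between the temperatures, where 552 of the 563 DEGs and 32.2% of all genes tested had no overlap. In 10 of the 11, 28 °C replicate 3 was the highest of its group. In *CAF1a*, a deadenylase subunit, the pattern was plain, with 21.7, 32.9 and 55.0 CPM at 28 °C, against 133, 116 and 101 CPM at 22 °C (log2 fold change -1.69, SE 0.18, adjusted p = 5.23e-07), and the log2 fold change without 28 °C replicate 3 was -2.08.

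The remaining falls of this group were *ZAT12* (-1.69), *WRKY40* (-1.49), the ethylene response factors *ERF5* (-1.76) and *ERF6* (-1.51), the touch gene *TCH2* (-1.29), the jasmonate repressor *JAZ7* and the 13-lipoxygenase *LOX4* of jasmonate synthesis. *JAZ7* was at 1.69, 0.587 and 4.26 CPM at 28 °C, against 13.8, 14.4 and 11.3 CPM at 22 °C (log2 fold change -2.68, SE 0.38, adjusted p = 1.97e-05). *JAZ8*, not tested, had 0, 0 and 0 reads at 28 °C and 4, 4 and 3 at 22 °C. The jasmonate regulator *MYC2* was lower by the adjusted p alone (log2 fold change -0.61, adjusted p = 0.00117). The only member that rose was *VSP2*, a jasmonate-induced storage protein, with 42.0, 29.9 and 8.52 CPM at 28 °C, against 11.001, 10.1 and 10.6 CPM at 22 °C (log2 fold change 1.38, SE 0.32, adjusted p = 0.00416). Here replicate 3 at 28 °C lay below all 3 libraries at 22 °C, the change was 1.76 without it, and the call was lost without replicate 1 (log2 fold change 0.94). *VSP2* has a near copy, *VSP1*, so its counts are uncertain.

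Genes of light signalling were lower where they changed by 2-fold. Of 24 tested, 0 rose and 6 fell as DEGs (25%, against 3.59% of all genes), with a median of -0.32, and DESeq2 called 0 higher and 5 lower. An unadjusted p of 0.05 passed 2 higher and 12 lower. *HY5* itself (chr5:3593335-3595073, minus strand) had 11.5, 6.45 and 12.001 CPM at 28 °C, against 14.9, 15.2 and 19.8 CPM at 22 °C, passed the adjusted p but not the 2-fold limit, and showed no overlap (log2 fold change -0.76, SE 0.24, adjusted p = 0.0281). Its closest relative *HYH* fell more, to 16.6, 9.09 and 15.5 CPM at 28 °C, against 57.0, 56.8 and 67.3 CPM at 22 °C (log2 fold change -2.16, SE 0.17, adjusted p = 5.16e-09). All 3 libraries at 28 °C stood well below those at 22 °C. *RUP1* and *RUP2*, which switch off the UV-B receptor UVR8, fell (log2 fold changes -1.22 and -1.77), as did the COP1 partner *SPA3* (-1.08) and the B-box genes *BBX32* (-2.16) and *BBX29* (-1.21). *BBX29* was near the counting limit and lost its call when 22 °C replicate 1 or 2 or 28 °C replicate 2 or 3 was left out. *SPA3* (-0.98 without 22 °C replicate 3) and *RUP1* (-0.98 without 28 °C replicate 1) then missed 2-fold. The photoreceptor genes *PHYB*, *CRY1* and *CRY2* overlapped between the temperatures, with log2 fold changes of 0.04, -0.08 and -0.03. *PHYA* was higher by the adjusted p alone (log2 fold change 0.35, adjusted p = 0.0191).

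Of the 12 ELIP and flavonoid genes tested (of 22), 0 rose and 3 fell as DEGs (1 higher and 9 lower at an unadjusted p of 0.05, and 0 and 3 by DESeq2), and the median was -0.56. DEGs made up 25% of those tested, against 3.59% of all genes. Besides *ELIP2*, the falls were in *F3H* and *CHIL* of flavonoid synthesis. *F3H*, a flavanone hydroxylase gene that was root-enriched, as was *CHS*, had 5.76, 3.81 and 1.94 CPM at 28 °C, against 10.6, 13.9 and 11.6 CPM at 22 °C (log2 fold change -1.63, SE 0.31, adjusted p = 0.000553). *CHIL*, a helper of chalcone synthase, had 21.0, 15.3 and 10.8 CPM at 28 °C, against 32.6, 33.7 and 33.5 CPM at 22 °C (log2 fold change -1.07, SE 0.18, adjusted p = 0.000181), and missed 2-fold without 28 °C replicate 3 (log2 fold change -0.89). *CHS*, chalcone synthase at the entry of the pathway, had 31.5, 26.1 and 10.8 CPM at 28 °C, against 51.9, 53.8 and 30.4 CPM at 22 °C, with overlap (log2 fold change -0.97, SE 0.23, adjusted p = 0.00504). For the late anthocyanin genes *LDOX* and *DFR*, 28 °C replicates 1 and 2 lay above every library at 22 °C, and neither gene passed. *LDOX* had 11.9, 8.80 and 2.32 CPM at 28 °C, against 2.36, 4.35 and 4.098 CPM at 22 °C (adjusted p = 0.0787), and *DFR* had 7.11, 7.04 and 0.774 CPM at 28 °C, against 4.32, 5.44 and 3.42 CPM at 22 °C (adjusted p = 0.799). In both genes 28 °C replicate 3 lay below all libraries at 22 °C. The anthocyanin activator *PAP1*, not tested, had 9, 11 and 6 reads at 28 °C and 0, 0 and 1 at 22 °C, and *ELIP1* had 4, 2 and 3 reads at 28 °C and 16, 16 and 9 at 22 °C. The list had 5 DEGs without 28 °C replicate 2 or 3, and 6 without 28 °C replicate 1 or 22 °C replicate 3. *LDOX* has a near copy at its 3′ end and is uncertain.

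Growth regulators rose in part. Of 16 genes of the PIF group tested, 3 rose and 0 fell as DEGs (6 higher and 0 lower at an unadjusted p of 0.05, and 2 and 0 by DESeq2), with a median of 0.32. DEGs made up 18.75% of those tested, against 3.59% of all genes. *PIF4*, the factor at the centre of warm growth, had 66.4, 58.7 and 78.6 CPM at 28 °C, against 32.2, 35.3 and 18.8 CPM at 22 °C (log2 fold change 1.22, SE 0.17, adjusted p = 1.23e-05). The groups were apart, and without 22 °C replicate 3, the lowest library, the log2 fold change was 0.99. *PRE1*, an atypical bHLH that promotes elongation, had 7.45, 8.80 and 8.90 CPM at 28 °C, against 3.54, 3.26 and 1.02 CPM at 22 °C (log2 fold change 1.66, SE 0.37, adjusted p = 0.00229). *HEC1* was called at the margin (log2 fold change 1.1998, SE 0.41, adjusted p = 0.0472) and its call was lost whichever of the 6 libraries was left out, so that the list had 1 DEG without 22 °C replicate 3. *PIF5* and *PIF7* overlapped between the temperatures, with log2 fold changes of 0.24 and -0.18, and *HFR1*, *PAR1* and *HAT1* were not DEGs (0.95, 0.46 and -0.08).

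Auxin genes gave a different picture. Of 11 genes of auxin synthesis, Aux/IAA and GH3 tested, 1 rose as a DEG (9.09%, against 3.59% of all genes). By the adjusted p alone 3 were lower, the median was -0.16, and DESeq2 called 0. *IAA29*, an Aux/IAA repressor induced through PIF4, had 4.74, 7.33 and 5.81 CPM at 28 °C, against 1.57, 3.81 and 1.71 CPM at 22 °C (log2 fold change 1.26, SE 0.40, adjusted p = 0.0296), and its call was lost without 22 °C replicate 1 or 3 or 28 °C replicate 2. *IAA4* was lower by the adjusted p alone, at 90.11, 92.4 and 112 CPM at 28 °C, against 145, 139 and 146 CPM at 22 °C (log2 fold change -0.55, SE 0.10, adjusted p = 0.000521). *IAA1* and *GH3.6*, an auxin-conjugating enzyme gene, were lower likewise (log2 fold changes -0.63 and -0.48). *IAA19* had 2.71, 4.11 and 9.29 CPM at 28 °C, against 2.36, 4.35 and 2.05 CPM at 22 °C, and did not pass (adjusted p = 0.267).

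Of the 12 *SAUR* genes tested, small auxin-induced genes that drive cell expansion, 3 rose and 0 fell as DEGs (25%, against 3.59% of all genes). At an unadjusted p of 0.05, 6 were higher and 0 lower, and all 12 fitted values were above 0 (median 0.56). *SAUR19* had 6.10, 8.21 and 13.2 CPM at 28 °C, against 4.32, 1.63 and 2.39 CPM at 22 °C (log2 fold change 1.75, SE 0.39, adjusted p = 0.00239). *SAUR22* had 3.39, 4.99 and 15.5 CPM at 28 °C, against 2.36, 1.90 and 2.05 CPM at 22 °C (log2 fold change 1.86, SE 0.50, adjusted p = 0.0106). In both, 28 °C replicate 3 was the highest library. Without it *SAUR22* (log2 fold change 1.01, adjusted p = 0.168) and *SAUR23* (1.07, adjusted p = 0.113) were not called, and the list had 1 DEG, as it had without 28 °C replicate 2. The calls were also lost without 22 °C replicate 2 for *SAUR22* and replicate 3 for *SAUR23*. *SAUR19* and *SAUR22* have near copies at their 3′ ends and are uncertain. In brassinosteroid and gibberellin metabolism 0 of 9 genes tested were DEGs by edgeR's test or DESeq2 (median 0.45), and 4 were higher at an unadjusted p of 0.05. *CPD*, a brassinosteroid synthesis gene, was higher by the adjusted p alone, with 212, 231 and 257 CPM at 28 °C, against 183, 173 and 149 CPM at 22 °C (log2 fold change 0.47, SE 0.10, adjusted p = 0.00195).

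Of 24 listed cell wall genes of the *XTH* and *EXPA* families tested, 2 rose and 1 fell as DEGs (12.5%, against 3.59% of all genes), with a median of 0.24. The expansin DEG *EXPA16*, which rose by 2.71 on the log2 scale, was not on this list and is not in these counts. *XTH15*, a xyloglucan-remodelling enzyme gene, had 19.6, 37.3 and 77.8 CPM at 28 °C, against 6.29, 8.97 and 8.20 CPM at 22 °C (log2 fold change 2.46, SE 0.35, adjusted p = 1.71e-05). Its 3 libraries at 28 °C were strung out and the change without replicate 3 was 1.85. *XTH17*, a root-enriched gene, rose at the margin (log2 fold change 1.19), and not without 28 °C replicate 3 (0.84, adjusted p = 0.179), 28 °C replicate 2 or 22 °C replicate 2 or 3. *XTH22*, also known as the touch gene *TCH4*, fell to 46.8, 75.1 and 105 CPM at 28 °C, against 286, 279 and 253 CPM at 22 °C (log2 fold change -1.86, SE 0.16, adjusted p = 1.05e-08). *EXPA1* was lower and *EXPA4* higher by the adjusted p alone (log2 fold changes -0.47 and 0.80).

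Photosynthesis genes shifted by small amounts. Of 33 tested, 0 rose and 1 fell as DEGs in edgeR's test and in DESeq2, and the median was 0.10. This share of DEGs, 3.03%, was near the 3.59% over all genes. By the adjusted p, 14 were higher and 9 lower, with the DEG among the 9, where 7.54% of all genes were higher and 9.32% lower. The DEG was *SIG5*, a chloroplast sigma factor under light and clock control, with 34.2, 30.5 and 27.1 CPM at 28 °C, against 74.6, 74.5 and 72.7 CPM at 22 °C (log2 fold change -1.27, SE 0.12, adjusted p = 1.06e-07). *RBCS1A*, the small subunit of Rubisco, had 17437, 16329 and 15108 CPM at 28 °C, against 20879, 23155 and 24248 CPM at 22 °C (log2 fold change -0.48, SE 0.09, adjusted p = 0.000292). *PORB*, of chlorophyll synthesis, had 575, 597 and 568 CPM at 28 °C, against 387, 356 and 338 CPM at 22 °C (log2 fold change 0.69, SE 0.09, adjusted p = 3.71e-06), and the greening factor *GLK1* had 64.0, 57.8 and 56.1 CPM at 28 °C, against 39.3, 34.5 and 27.7 CPM at 22 °C (log2 fold change 0.82, SE 0.14, adjusted p = 0.000129). The groups did not overlap in any of these 4 genes.

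Among 20 cold and dehydration genes tested, 4 rose and 1 fell as DEGs (25%, against 3.59% of all genes). The median was 0.30, and the list had 8 and 7 DEGs without 22 °C replicate 1 or 2. The fall was in *COR15B*, a chloroplast protein of freezing tolerance, with 11.2, 7.04 and 3.87 CPM at 28 °C, against 24.4, 19.0 and 12.3 CPM at 22 °C (log2 fold change -1.30, SE 0.29, adjusted p = 0.00237). The rises, besides *LTP3*, were in *RD29B* and *RD20*, both induced by abscisic acid, and in *GOLS1*, which makes galactinol in heat and drought. *RD20* had 19.0, 14.96 and 5.42 CPM at 28 °C, against 1.96, 5.16 and 3.42 CPM at 22 °C (log2 fold change 1.85, SE 0.38, adjusted p = 0.0012), and *RD29B* had 23.7, 15.8 and 10.5 CPM at 28 °C, against 7.07, 6.25 and 5.46 CPM at 22 °C (log2 fold change 1.43, SE 0.28, adjusted p = 0.000729). In *RD20*, *RD29B* and *LTP3* alike, 28 °C replicate 3 was the lowest of its group. *GOLS1* had 14.9, 16.7 and 16.6 CPM at 28 °C, against 8.25, 7.88 and 5.81 CPM at 22 °C (log2 fold change 1.13, SE 0.23, adjusted p = 0.000966), and was not called without 22 °C replicate 3. *CBF2*, a cold regulator, did not pass (log2 fold change -0.53, adjusted p = 0.32). The phosphatase gene *HAI1*, not tested, had 37, 17 and 9 reads at 28 °C and 7, 6 and 3 at 22 °C.

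Of 23 cell cycle genes tested, 1 fell as a DEG (4.35%), near the 3.59% of DEGs over all genes. With that DEG, 3 were lower by the adjusted p, where 9.32% of all genes were lower. Fitted values were below 0 in 19 (median -0.39). *CYCB1;4*, a mitotic cyclin, had 8.13, 5.28 and 6.97 CPM at 28 °C, against 14.9, 10.6 and 17.1 CPM at 22 °C (log2 fold change -1.05, SE 0.26, adjusted p = 0.00585), and missed 2-fold without 22 °C replicate 3 or without 28 °C replicate 2 (-0.88 at the least). The list had 2 DEGs without 28 °C replicate 1. *KN*, the cytokinesis syntaxin KNOLLE, was lower by the adjusted p alone (log2 fold change -0.78, adjusted p = 0.00215). None of 9 sugar starvation genes was a DEG by edgeR's test or DESeq2 (median -0.06), where 4 passed the adjusted p alone and 5 an unadjusted p of 0.05. Of 4 stomatal and meristem markers tested 0 were DEGs by edgeR's test or DESeq2 and 0 passed an unadjusted p of 0.05, with sums of 35.1 to 48.9 CPM at 28 °C and 37.1 to 45.5 CPM at 22 °C.

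**Figure D3:**
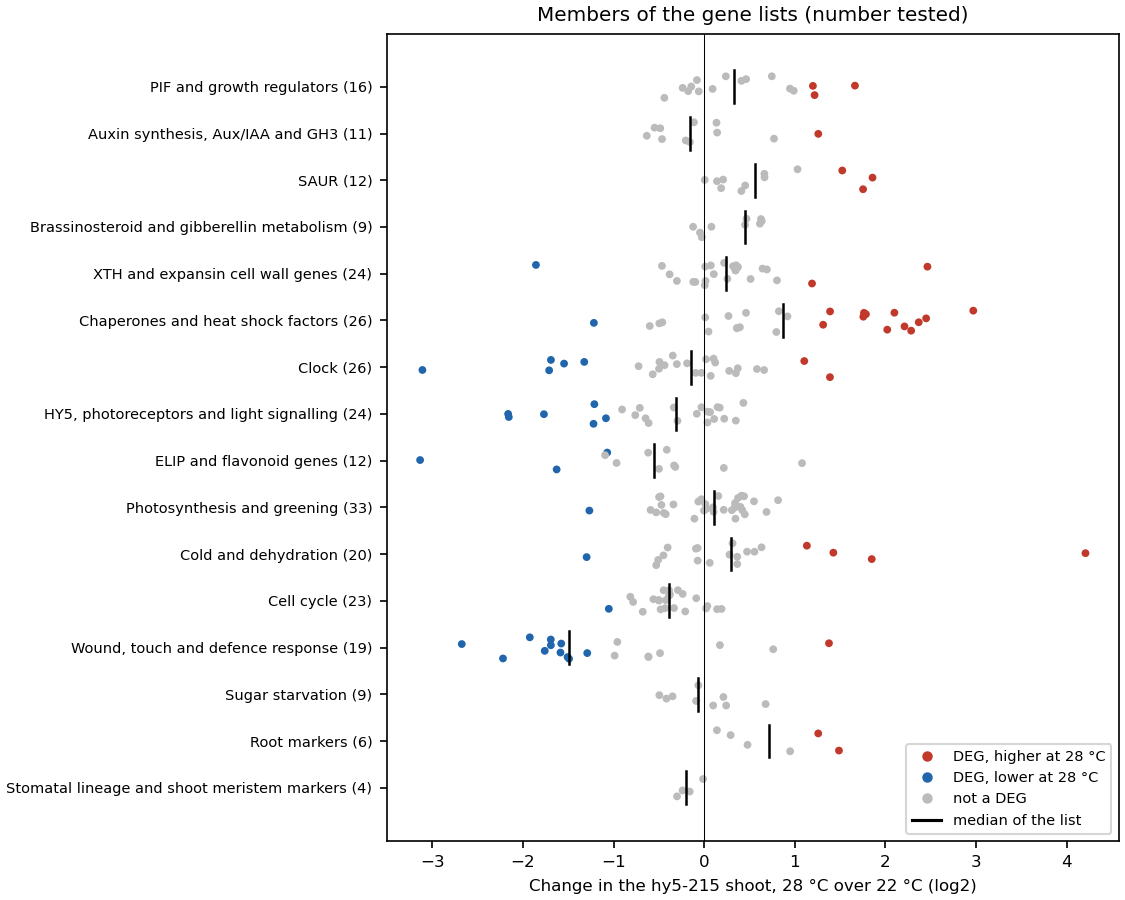
Change in the *hy5-215* shoot (log2 of 28 °C over 22 °C, x axis) for each tested member of 16 gene lists (rows, number tested in parentheses), with DEGs in red where higher and blue where lower and the list median as a black bar. The chaperone list has its median at 0.87 and 12 of 26 genes in red, and the wound, touch and defence list its median at -1.49 and 11 of 19 in blue.

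Over all DEGs, GAANNTTC was found in 56 of the 286 windows of DEGs that were lower (19.6%) and in 24 of 277 of those that were higher (8.66%). TTGACC, 1 form of the W-box bound by WRKY factors, was in 20.3% of windows of lower DEGs and 12.6% of higher DEGs, where 12% of all tested genes held it. Other forms of the W-box were not sought. The G-box was in 9.09% of lower and 7.22% of higher DEGs, and the evening element AAAATATCT in 3.15% of lower, 1.44% of higher and 2.6% of all. The rapid stress element CGCGTT was in 5.94% of lower, 3.25% of higher and 2.74% of all, and the PBE-box CACATG in 14.7% of lower, 10.8% of higher and 10.9% of all. Each motif was sought on both strands and no overlap between different motifs was sought. No test was made, and a match is no evidence of binding.

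The comparison with Col-0 asked whether the mutant shoot answered the same temperature step differently. In the Col-0 shoot 833 of 15697 genes were DEGs (5.31%), 338 higher (2.15%) and 495 lower (3.15%); 25% passed the adjusted p alone, and 38.4% had no overlap between the temperatures. Of the 563 DEGs of *hy5-215*, 293 were also DEGs in Col-0 and 270 were not. Of the 270, 217 were tested in Col-0, 199 had the same sign there, 95 passed the adjusted p there, and the median change in the *hy5-215* direction was 1.18 in *hy5-215* and 0.60 in Col-0. These genes were chosen for their call in *hy5-215* and none in Col-0, so the medians cannot show a weaker response in Col-0. The difference itself, tested as a genotype by temperature interaction, passed in 22 of the 270 and in 169 genes in all, 1.03% of 16429 tested, 93 with the larger value in *hy5-215* and 76 with the smaller. In 62 of the 167 tested in both genotypes the Col-0 change had the same sign and was larger, in 17 the *hy5-215* change was larger, and in 88 the signs were opposite. This count moved with single libraries. It was 60 and 319 without *hy5-215* 28 °C replicate 2 or 3, 398, 70 and 97 without Col-0 28 °C replicate 1, 2 or 3, and 104 and 76 without Col-0 22 °C replicate 2 or 3.

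**Figure D4:**
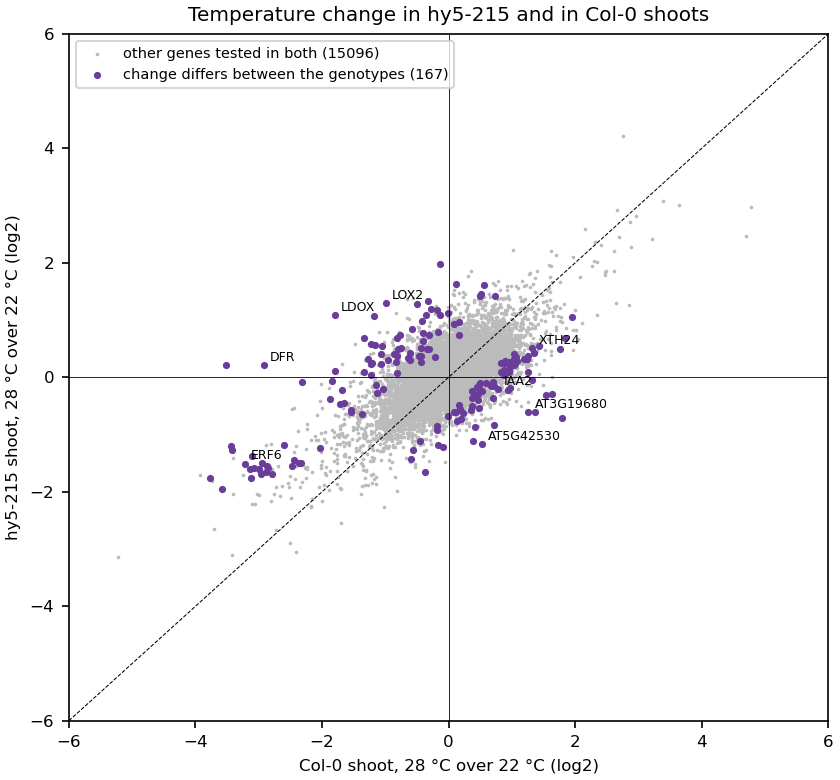
Change at 28 °C over 22 °C in the *hy5-215* shoot (log2, y axis) against the Col-0 shoot (log2, x axis) for 15263 genes tested in both, with the 167 genes whose change differed between the genotypes in purple and the line of equal change dashed. *LOX2* lies at 1.29 in *hy5-215* and -0.99 in Col-0, and *AT5G42530* at -1.16 in *hy5-215* and 0.52 in Col-0.

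The 10 genes with the smallest interaction p included several that moved in opposite directions. *AT5G42530*, of unknown function, fell in *hy5-215*, with 250.01, 266 and 316 CPM at 28 °C, against 619, 571 and 671 CPM at 22 °C. In Col-0 it had 171, 258 and 351 CPM at 28 °C, against 187, 157 and 200.4 CPM at 22 °C, and the changes differed by -1.69 (SE 0.21, adjusted p = 4.87e-05). Its level at 22 °C was the one that stood apart, higher in all 3 *hy5-215* libraries than in any Col-0 library. *LOX2*, the chloroplast lipoxygenase of jasmonate synthesis, rose in *hy5-215*, with 280.2, 206 and 101 CPM at 28 °C, against 75.8, 68.5 and 97.7 CPM at 22 °C. In Col-0 *LOX2* had 175, 123 and 86.0 CPM at 28 °C, against 308, 224 and 230.4 CPM at 22 °C, and the changes differed by 2.27 (SE 0.31, adjusted p = 0.000105). Replicate 3 was the low library at 28 °C in both genotypes. *MT1C*, a metallothionein gene, had 798, 704 and 571 CPM at 28 °C, against 354, 379 and 246 CPM at 22 °C in *hy5-215*, where Col-0 had 186, 202 and 198 CPM at 28 °C and 209, 209.7 and 224 CPM at 22 °C (difference 1.21, adjusted p = 0.000221). Here the 2 genotypes did not overlap at either temperature.

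*MYBR1*, also called MYB44, a Myb factor of abscisic acid and stress responses, changed by -1.65 in *hy5-215* and by -0.38 in Col-0 (difference -1.29), though it overlaps other genes on both strands and is uncertain. *AT4G08555* (-1.21 in *hy5-215* and -3.44 in Col-0) and *AT5G19240*, a GPI-anchored protein gene (-1.60 and -3.00), fell in both and less in *hy5-215*. *AT1G75280*, an NmrA-like family gene, changed by -0.56 in *hy5-215* and -1.55 in Col-0. *AT3G19680* and *AT5G02760* (a type 2C phosphatase gene) rose in Col-0 (1.26 and 1.32), where in *hy5-215* they had log2 fold changes of -0.61 and -0.05; both overlap a gene on the opposite strand. The chitinase family gene *AT2G43590* had 0.55 in *hy5-215* and -1.06 in Col-0.

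Among the lists, the wound group held the most genes that passed the interaction, 6 of 20 tested, against 1.03% of all genes. The shorter sugar starvation list had 3 of 9. Of the 11 wound, touch and defence DEGs that fell, 10 fell further in Col-0 and 6 passed, *ZAT10*, *ZAT12*, *WRKY40*, *ERF5*, *ERF6* and *CAF1a*. *ERF6* changed by -1.51 in *hy5-215* and -3.22 in Col-0 (difference 1.70, SE 0.36, adjusted p = 0.0147), and *WRKY40* by -1.49 in *hy5-215* and -2.94 in Col-0 (difference 1.44, SE 0.28, adjusted p = 0.00906). Without *hy5-215* 28 °C replicate 3 all 6 differences were smaller, and *ZAT10* (adjusted p = 0.0956), *ZAT12* (0.0806) and *ERF5* (0.151) were then not called. With each of the 12 libraries left out in turn, the call was lost for *ZAT10* and *ERF5* in 9 cases each and for *ZAT12* in 6. That of *ERF6* was lost without *hy5-215* 28 °C replicate 2 and that of *CAF1a* without Col-0 28 °C replicate 2, and *WRKY40* was called in every case. DESeq2 did not call *ZAT10*, *ERF5*, *ERF6* or *CAF1a*. *DFR* and *LDOX* fell in Col-0 (log2 fold changes -2.92 and -1.80), and the change in *hy5-215* differed by 3.13, SE 0.74, adjusted p = 0.0246 for *DFR* and by 2.87, SE 0.63, adjusted p = 0.0154 for *LDOX*. The difference in *DFR* was lost in 8 of the 12 cases, and that in *LDOX* without Col-0 22 °C replicate 1, Col-0 28 °C replicate 2 or *hy5-215* 28 °C replicate 1 or 2, and DESeq2 called neither. *IAA2*, *GH3.5*, *XTH24* and *PHYA* were higher in Col-0 by 0.77, 0.88, 1.32 and 1.06, where *hy5-215* had -0.20, 0.14, 0.51 and 0.35. *SEN1*, *ASN1* and *DIN10*, induced in the dark or on sugar starvation, had 0.21, 0.24 and -0.09 in *hy5-215* and 1.04, 0.88 and 0.71 in Col-0. *LHCB1.5* and *BIP2*, both with near copies, passed with differences of -0.65 and 0.57. These calls too depended on single libraries, being lost in 10 of the 12 cases for *ASN1*, 9 each for *SEN1*, *GH3.5* and *BIP2*, 6 for *PHYA*, 4 for *LHCB1.5*, 3 for *XTH24*, 2 for *IAA2* and 1 for *DIN10*. *ASN1*, *SEN1*, *GH3.5* and *BIP2* were also not called by DESeq2. The 10 genes with the smallest interaction p kept their call in all 12 cases.

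In other groups few differences between the genotypes were detected. None of the 12 chaperone DEGs that rose passed the interaction in edgeR's test or in DESeq2, 2 had an unadjusted p of at most 0.05, and 9 of the 11 tested in Col-0 were DEGs there. *HSP90.1* rose by 2.37 in *hy5-215* and 2.32 in Col-0 (difference 0.04, SE 0.28, adjusted p = 0.986). *LHY* differed by 0.31 (SE 0.31) and *HY5* by -0.06 (SE 0.30). *PIF4* rose by 1.22 in *hy5-215* and 1.76 in Col-0, a difference of -0.55 (SE 0.24, adjusted p = 0.372), and *XTH15* by 2.46 and 4.70 (difference -2.25, SE 0.69, adjusted p = 0.13). The list medians of the PIF group were 0.32 in *hy5-215* and 0.79 in Col-0, of the auxin group -0.16 and 0.55, of *SAUR* genes 0.56 and 0.96, and of sugar starvation genes -0.06 and 0.63. Those of the chaperones were 0.87 in both. Each median covers the genes tested in that genotype. The auxin group had 11 tested in *hy5-215* and 13 in Col-0, and the chaperones 26 and 25, so their medians rest on unlike sets of genes. Differences between the medians were not tested.

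Root-enriched genes were counted among the DEGs of *hy5-215* by their call in Col-0. Of the 174 that were higher and not DEGs in Col-0, 70 were root-enriched (40.2%). Of the 103 that were higher in *hy5-215* and also DEGs in Col-0, in either direction there, 18 were root-enriched (17.5%). A low level in the Col-0 shoot at 22 °C helps to define root-enriched genes. It also makes a call in Col-0 harder, so part of this contrast may follow from the definition. Over all 707 root-enriched genes tested, 521 (73.7%) had a fitted value above 0 and the median was 0.32, where the other genes had 49.8% and a median of -0.00. These 707 passed the count filter, which a gene can pass through its 28 °C libraries alone. Of the 16 root markers listed, 6 were tested and 2 rose, *MRN1* and *IRT1*. *IRT1*, the iron transporter of the root epidermis, had 8.47, 9.09 and 6.19 CPM at 28 °C, against 1.96, 3.26 and 3.07 CPM at 22 °C (log2 fold change 1.49, SE 0.34, adjusted p = 0.00344). *MRN1*, marneral synthase, had 4.74, 5.28 and 12.001 CPM at 28 °C, against 2.36, 2.17 and 4.44 CPM at 22 °C, and was not called without 28 °C replicate 3 (0.75, adjusted p = 0.281) or 22 °C replicate 1 or 2. The root markers summed to 64.5 to 92.7 CPM in the shoot at 28 °C and 41.2 to 47.6 CPM at 22 °C, against 984 to 1202 CPM at 28 °C and 739 to 917 CPM at 22 °C in the *hy5-215* root. *NRT2.1*, also on the list, was at 0 reads in all 6 shoot libraries, as it was in the *hy5-215* root. In the Col-0 shoot the root markers summed to 41.8, 42.4 and 61.4 CPM at 28 °C, against 35.4, 30.5 and 46.5 CPM at 22 °C, and these overlapped. The share of counts in the root-enriched genes was 1.701%, 1.785% and 1.83% at 28 °C in the Col-0 shoot, against 1.553%, 1.572% and 1.609% at 22 °C, with no overlap, but the Col-0 libraries at 22 °C had been used to choose these genes. By the ratio of root over shoot in *hy5-215* at 22 °C instead, 62 of the 338 DEGs that were higher in the Col-0 shoot were root-enriched (18.3%), against 5.58% of all genes tested there. The part of root RNA in the rise of the shoot genes was not tested.

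**Figure D5:**
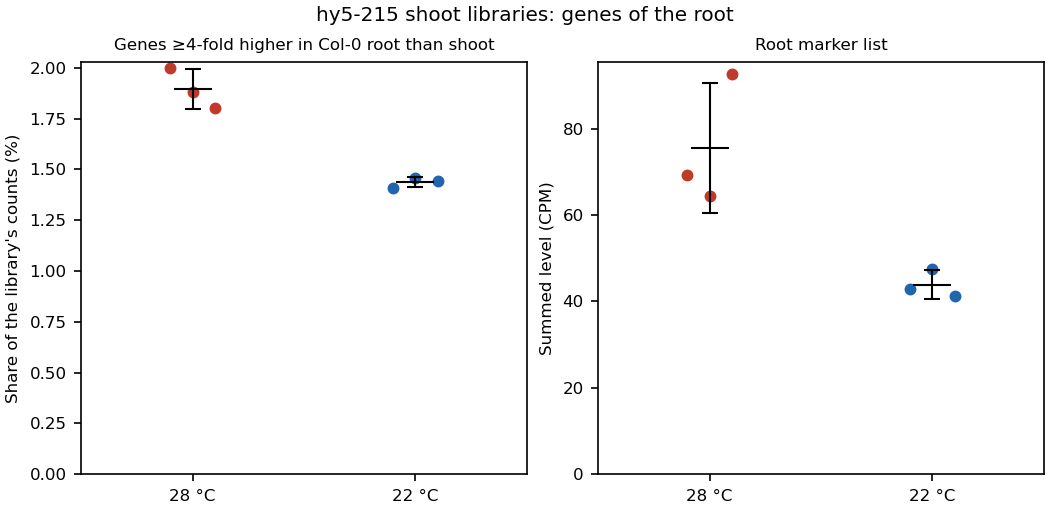
Left, share of counts (%) in the 1615 root-enriched genes and, right, summed level (CPM, by library size alone) of the root marker list in each *hy5-215* shoot library at 28 °C (red, left) and 22 °C (blue, right), with mean ± SD. The 28 °C libraries hold 1.80% to 1.998% and 64.5 to 92.7 CPM, all above the 22 °C libraries.

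The root of the same mutant gave a second point of comparison. There 285 of 16445 genes were DEGs (1.73%), 182 of them higher (1.11%), and 6.05% passed the adjusted p alone (3.11% higher and 2.94% lower). The change differed between shoot and root in 674 of 18160 genes (3.71%), and was lower in the shoot in 2.4%. Chaperones rose in both tissues. Of the 12 that rose in the shoot 10 were DEGs in the root, and 3 differed, all with the larger rise in the root: *HSP90.1* (2.37 in the shoot and 3.66 in the root), *AT5G51440* (2.21 and 4.00) and *ROF2* (2.099 and 3.32). Of the 24 wound, touch and defence genes listed, 15 differed between shoot and root. All 11 that fell as DEGs in the shoot were among them. These 11 were chosen by their fall in the shoot, and the same shoot values enter the test, which favours a difference. Of the 9 tested in the root alone, 4 rose there as DEGs. *JAZ7* and *LOX4* had too few root reads for that test. *WRKY33* changed by -1.92 in the shoot and 1.04 in the root, *ERF5* by -1.76 and 1.79, *ERF6* by -1.51 and 1.89, and *CAF1a* by -1.69 and 1.37. *LHY* fell in both (-3.11 in the shoot and -2.76 in the root). *XTH15* rose more in the shoot, by 2.46, against 0.50 in the root (difference 1.92, adjusted p = 0.000315).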

How the data were processed

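The authors checked 3′Tag-Seq reads with FastQC, aligned them with HISAT2 and counted them per gene with HTSeq on TAIR10; the deposited values are raw counts without normalization. Tool versions and use of strand are not given in the sources used here. Tags come from transcript 3′ ends, so counts do not grow with gene length. No column was left out, and totals in the 6 libraries were 2620219 to 3781032 counts.

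The counts were fitted in R 4.3.3 with edgeR 4.0.16 (TMM, filterByExpr at min.count 10 and min.total.count 15, quasi-likelihood F-test, Benjamini-Hochberg over all genes tested) on the 6 libraries of each comparison, and on 12 libraries for the interactions, called by adjusted p alone. The DEG cutoffs, adjusted p 0.05 and 2-fold, were the authors'. The SE is the absolute log2 fold change divided by the square root of F, and is approximate. Fits were tested on simulated data. Members and gene lists were chosen with earlier results of these data known. Genes named were, in each direction, the 10 DEGs that changed most (non-overlapping groups, 20 counts or more on average), the 10 with the smallest interaction p, DEGs in the lists, list members singled out by role, and *HY5*. Names and coordinates came from RefSeq TAIR10.1 (32548 of 33977 identifiers matched). Near copies were sought with blastn 2.17.0+ for the last 300 bases of 92 genes (at least 90% identity over 100 bases), and 6 had one. Root-enriched genes were set from Col-0 libraries alone, with a pseudocount of 1 CPM.

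Alternatives were DESeq2 1.42.0, library size alone, other filters, a replicate block, no fold cutoff, a test against 1.5-fold change, a joint fit, each library left out and, added after the data were seen, root-enriched genes left out.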

Additional observations from a re-analysis of the deposited data

Results flagged for a closer look

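Differences between groups were tested by interaction terms in edgeR. The temperature change differed between the *hy5-215* and the Col-0 shoot in 169 genes and between the *hy5-215* shoot and root in 674. The values that follow are differences in log2 change.

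Changes were lower in *hy5-215* than in Col-0 shoots for *AT5G42530* (-1.69), *MYBR1* (-1.29), *AT3G19680* (-1.88), *AT5G02760* (-1.37), the auxin genes *IAA2* (-0.99) and *GH3.5* (-0.75), *XTH24* (-0.82), *PHYA* (-0.72), *LHCB1.5* (-0.65) and the starvation genes *SEN1* (-0.83), *ASN1* (-0.65) and *DIN10* (-0.81).

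They were higher in *hy5-215* for *AT4G08555* (2.22), *LOX2* (2.27), *MT1C* (1.21), *AT5G19240* (1.38), *AT2G43590* (1.60), *AT1G75280* (0.97), *BIP2* (0.57), the anthocyanin genes *DFR* (3.13) and *LDOX* (2.87), and the wound genes *ZAT10* (1.48), *ZAT12* (1.08), *WRKY40* (1.44), *ERF5* (1.34), *ERF6* (1.70) and *CAF1a* (1.25).

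Between the shoot and the root of *hy5-215*, the change was higher in the shoot for *XTH15* (1.92) and lower in the shoot for *HSP90.1* (-1.33), *WRKY33* (-3.00), *ERF5* (-3.59), *ERF6* (-3.45) and *CAF1a* (-3.09).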

How the results depend on the processing

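None of the 70 named DEGs and 27 named interaction genes changed sign under any alternative run. The 563 DEGs of the *hy5-215* shoot became 2644 with no fold cutoff (1183 higher and 1461 lower) and 315 in a test against a 1.5-fold change (109 higher); DESeq2 called 458, of which 455 were among the 563. The balance of 277 higher and 286 lower turned to 317 and 250 with library size alone, 359 and 332 with no filter, 312 and 304 in a joint fit of the 12 shoot libraries and 303 and 268 without 22 °C replicate 2. With each library left out in turn, DEGs numbered 506 to 620 (246 to 303 higher, 260 to 334 lower) in the *hy5-215* shoot, 751 to 1095 (271 to 506 higher, 447 to 589 lower) in the Col-0 shoot and 222 to 359 (127 to 241 higher, 80 to 152 lower) in the *hy5-215* root, and interaction genes 60 to 398 for genotype and 522 to 725 for tissue. The 169 genes of the genotype interaction were 106 with DESeq2, 366 with no filter and 266 with the replicate block. Correlations of same-numbered deviations, at replicates 1, 2 and 3, were -0.036, 0.033 and -0.049 for 28 °C and 22 °C in the *hy5-215* shoot. For *hy5-215* and Col-0 shoots they were 0.13, 0.0071 and 0.17 at 28 °C and 0.028, -0.015 and 0.047 at 22 °C. As not every one was over 0.1, the replicate numbers were not taken to pair the libraries. At 28 °C, *hy5-215* replicate 1 with Col-0 replicate 3 gave -0.14, and *hy5-215* replicate 3 with Col-0 replicate 1 gave -0.16. The 169 interaction genes therefore allow for no replicate effect shared by the genotypes, where the block gave 266. Whether the libraries share such an effect was not tested. The block gave 512 DEGs in the *hy5-215* shoot, 820 in the Col-0 shoot, 310 in the *hy5-215* root and 714 tissue interaction genes. Of 70 named DEGs 50 were called in every alternative and 16 were lost without some library, as were 16 of 27 named interaction genes. Genes of a few reads per library, such as *HEC1*, *BBX29* and *IAA29*, are limited by depth.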

Other observations

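Other groups, chosen after their values were seen, moved in the *hy5-215* shoot. Genes of TIR-domain proteins, many of them immune receptors, fell as DEGs in 11 of 53 tested and rose in 0. Over all genes 1.82% fell and 1.77% rose. The median log2 fold change was -0.40, with 2 higher at an unadjusted p of 0.05 and 0 by DESeq2. In Col-0, 8 of 52 fell (median -0.29), where 3.15% of all genes fell. *AT1G66090* had 20, 40 and 24 reads at 28 °C, against 97, 156 and 102 at 22 °C (-2.04). *APR2* (-1.48) and *APR3* (-1.74), which encode reductases of sulfate assimilation, fell, as did *LSU2* (-1.76) and *LSU3* (-1.77, log2 fold changes), while *APR1* had -0.60 (adjusted p = 0.0167), under the 2-fold limit. *LSU1* stood apart, with 19, 17 and 21 reads at 28 °C, against 16, 35 and 12 at 22 °C (-0.08), where Col-0 had -2.32 (difference 2.22, adjusted p = 0.00847). The abscisic acid hydroxylase genes *CYP707A2* (-1.56) and *CYP707A3* (-1.63) fell, and *CYP707A1* had 0.71 (adjusted p = 0.189), not called.

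*CORI3*, a jasmonate-induced gene, had 257, 212 and 59 reads at 28 °C, against 41, 59 and 35 at 22 °C (log2 fold change 1.98), and Col-0 had -0.14 (difference 2.104, adjusted p = 0.0101). As in *LOX2* and *VSP2*, 28 °C replicate 3 was the low library of its group. The defence genes *ESM1* (1.42), *DOX1* (1.45) and *KTI1* (1.43) rose in *hy5-215*, and their changes differed from Col-0 by 0.91, 0.93 and 0.68. Of 58 lipid transfer protein genes tested, 11 rose and 0 fell as DEGs (7 lower at an unadjusted p of 0.05, and 0 by DESeq2). Over all genes 1.77% rose and 1.82% fell. Of the 11, 8 were root-enriched. In Col-0, 6 of 56 lipid transfer protein genes rose and 2 fell. Of 39 peroxidase genes 6 rose, 5 of them root-enriched, and 1 fell, where in Col-0 2 of 33 rose and 0 fell. Over all genes in Col-0, 2.15% rose and 3.15% fell.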
